A study of Mus musculus with 4 samples.

Results

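Spots of the infarct zone (IZ) that held Cthrc1 transcripts were compared with IZ spots that held Postn but no Cthrc1, in 3 infarcted mouse hearts profiled with Visium, an array whose spots each capture the polyadenylated RNA of the tissue above them. A spot can cover several cells, so a spot class is a class of small tissue areas and not of fibroblasts. Spots marked as tissue with at least 500 UMIs (unique molecules counted) were classed by the share of their non-mitochondrial UMIs that came from 12 cardiomyocyte genes. The IZ was made of spots in which this share was below 0.5 times the section's 90th percentile, in connected patches of at least 10 spots. IZ spots with at least 1 Postn UMI were called Cthrc1-rich at 3 or more Cthrc1 UMIs and Cthrc1-free at 0. These rules gave 1790 spots, 1395 Cthrc1-rich and 395 Cthrc1-free, of the 6619 spots in the matrices. Because a spot with more UMIs is more likely to hold any given transcript, Cthrc1-free spots were paired 1 to 1 with Cthrc1-rich spots of the same section and a like number of non-mitochondrial UMIs, which left 207 pairs, 414 spots.

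All 4 sections came from hearts of Collagen1a1-GFP+ mice aged 8 to 12 weeks, the control included. The 3 infarcted hearts had their left anterior descending coronary artery ligated and were taken at 3 dpi (days post-infarction, 1 heart) or 5 dpi (2 hearts), against 1 healthy control. The GFP is driven by a collagen promoter and so marks any cell that uses it. Each heart gave 1 fresh-frozen section of 10 µm.

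Cardiac fibroblasts (CFs) that become activated after a myocardial infarction secrete periostin, the product of Postn, and lay down the matrix that replaces dead muscle. Reparative cardiac fibroblasts (RCFs) are activated CFs that also express Cthrc1, a secreted protein with a collagen-like triple helix, and are known for their role in building a scar that keeps the ventricle from rupturing. The study asks when and where activated Postn+/Cthrc1- CFs give way to Postn+/Cthrc1+ RCFs. Infarcts at these days also hold many neutrophils, monocytes and macrophages, which clear dead cells before the scar matures.

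After filtering, the control kept 1166 spots, the 3 dpi section 1753 and the 5 dpi sections 1567 and 1423, with 6370134 to 11269552 UMIs per section and a median of 4980.5 to 6937 UMIs per spot. The 5 dpi sections are named here by their sex labels, because their Y-linked transcripts went against them. The 4 Y-linked genes counted gave 718 UMIs in the section labelled female and 1 UMI in the section labelled male. The control section held 0 IZ spots and 0 Cthrc1 UMIs, so it entered no comparison. Values by section are given below in the order 3 dpi, 5 dpi labelled female, 5 dpi labelled male.

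The IZ held 886, 1081 and 684 spots, of which 849, 1064 and 682 had a Postn UMI. Cthrc1-rich spots made up 33.2%, 60.5% and 68.8% of these Postn spots, and Cthrc1-free spots 26.9%, 11.4% and 6.74%. The share of Cthrc1-rich spots was thus lower, and that of Cthrc1-free spots higher, in the single 3 dpi section than in either 5 dpi section. Before pairing, the median spot held 8131, 8444 and 7244 non-mitochondrial UMIs in the Cthrc1-rich class and 2857.5, 2692 and 5279.5 in the Cthrc1-free class. After pairing, the medians were 5791, 4189.5 and 5444.5 against 5412, 4224 and 5449, over 95, 70 and 42 pairs.

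**Figure D1:**
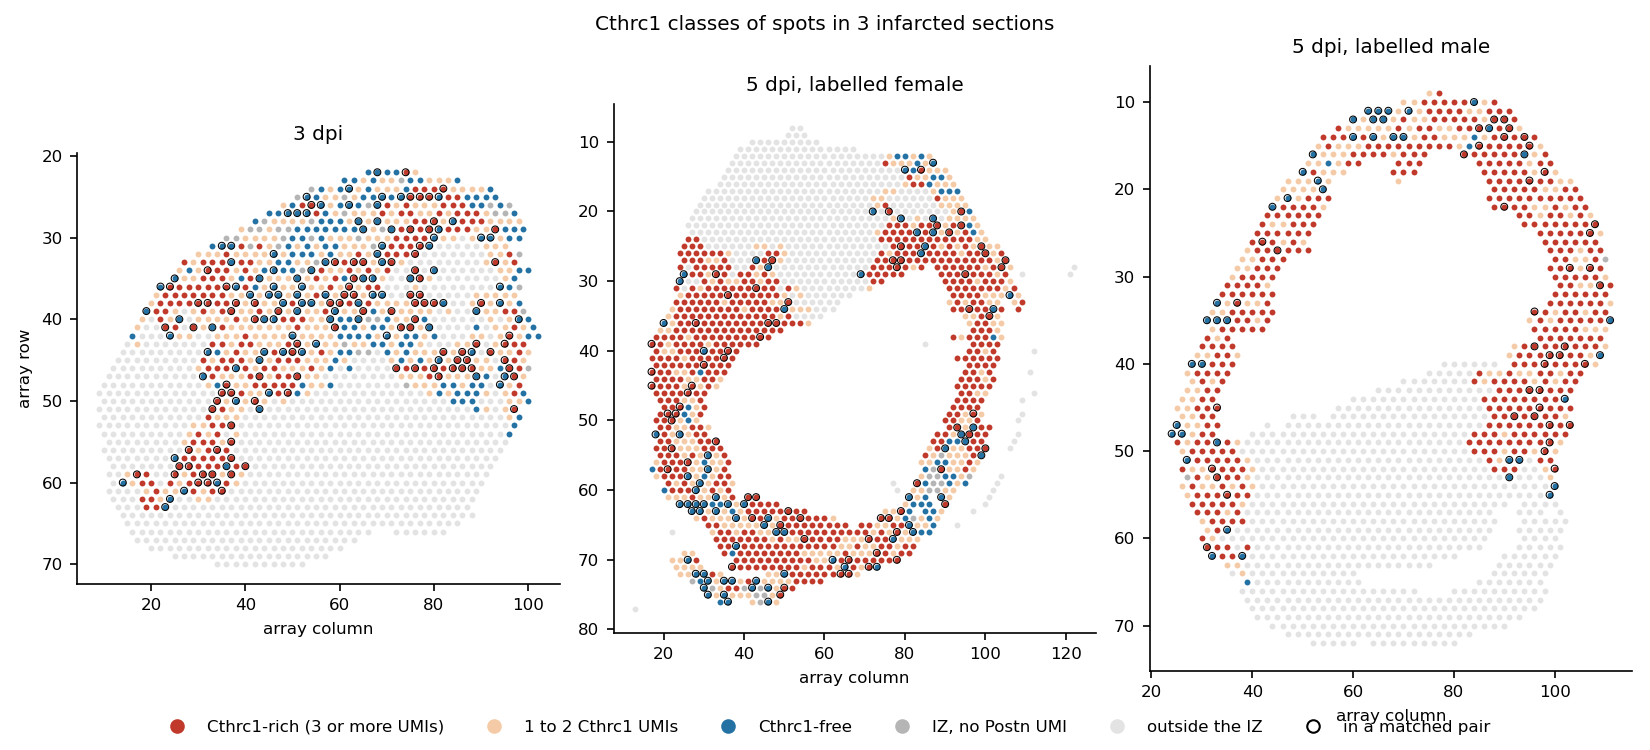
Position of each spot on the array (array column against array row, both as grid indices) in the 3 infarcted sections, coloured by class. Cthrc1-rich and Cthrc1-free spots lie within the same IZ, with 282, 644 and 469 Cthrc1-rich and 228, 121 and 46 Cthrc1-free spots from left to right.

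Levels are given as CPM, a gene's UMIs divided by all non-mitochondrial UMIs of the summed class and scaled by the same factor throughout. The matched Cthrc1-rich spots held 773, 928 and 989 CPM of Cthrc1 and the others none, as the rule required. Their Postn level was 3332, 4128 and 4334 CPM, against 1560, 1878 and 1849 CPM in the Cthrc1-free spots. Postn was thus higher with Cthrc1 in 3 of 3 sections, although the rule asked for only 1 Postn UMI in both classes. Per 100 Postn UMIs, the Cthrc1-rich spots held 23.2, 22.5 and 22.8 Cthrc1 UMIs, nearly the same in the 3 sections. At the edge of the rule, spots with 2 Cthrc1 UMIs, which were left out, held 1934, 2550 and 2538 CPM of Postn, and those with 3 Cthrc1 UMIs, which were kept, held 2124, 2898 and 3021 CPM. These Cthrc1 and Postn values describe the rule and its companion gene and were not tested.

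Matched Cthrc1-rich spots stood, on average, fewer steps from the edge of the IZ. Their mean distance to the nearest tissue spot outside the IZ, counted in grid steps through the IZ, was 2.91, 21.8 and 14.8 steps, against 4.96, 28.7 and 21.5 steps in matched Cthrc1-free spots. The mean difference of -5.20 steps (SD 2.73, n = 3 sections) had the same sign in every section (exact sign-flip permutation test, two-sided, p = 0.25, the smallest p that 3 sections allow). The share of spots within 1 to 2 steps of that edge had no common sign, at 55.8%, 12.9% and 7.14% against 42.1%, 17.1% and 19.0% (exact sign-flip permutation test, two-sided, p = 1.0). Neighbouring spots were Cthrc1-rich for 41.2%, 58.9% and 78.1% of the neighbours of matched Cthrc1-rich spots and for 28.3%, 31.8% and 35.9% of those of matched Cthrc1-free spots. Cthrc1-free spots made up 14.1%, 8.92% and 3.51% of the neighbours of the rich class and 17.7%, 18.6% and 16.5% of those of the free class, so both classes had more rich than free neighbours. The class of a spot was itself set by Cthrc1, so this clustering was not tested.

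In Cthrc1-rich spots, 9 of 19 tested collagens, 4 of 7 small leucine-rich proteoglycans (SLRPs) and 11 of 20 matricellular genes were higher, with 1 matricellular gene lower, against 1.39% higher and 1.37% lower of all genes tested. Of macrophage markers, 2 of 8 general and 5 of 8 lipid-associated ones were lower, and the other genes of these lists did not pass. The question was which other genes go with Cthrc1 among IZ spots that all contain Postn. Of 4948 genes tested by edgeR's quasi-likelihood test with the section as a block, 137 passed an adjusted p of 0.05 (2.77% of those tested), 69 of them higher (1.39%) and 68 lower (1.37%) in Cthrc1-rich spots. The direction was the same in 3 of 3 sections for 63 of the higher and 66 of the lower genes, and the median log2 fold change (Cthrc1-rich over Cthrc1-free, the scale of all changes below) of all genes tested was 0.01. In spots that pool several cells, fewer cells of a type and less RNA per cell cannot be told apart. The hearts are the replicates, and the count leaned on both 5 dpi hearts: 7 genes passed without the section labelled female, 27 without the section labelled male and 144 without the 3 dpi section. The 136 called genes that could be fitted without the section labelled female all kept their direction. As most already had 1 direction in 3 of 3 sections, leaving out a section could turn few of them. DESeq2, another count test, passed 16 genes.

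**Figure D2:**
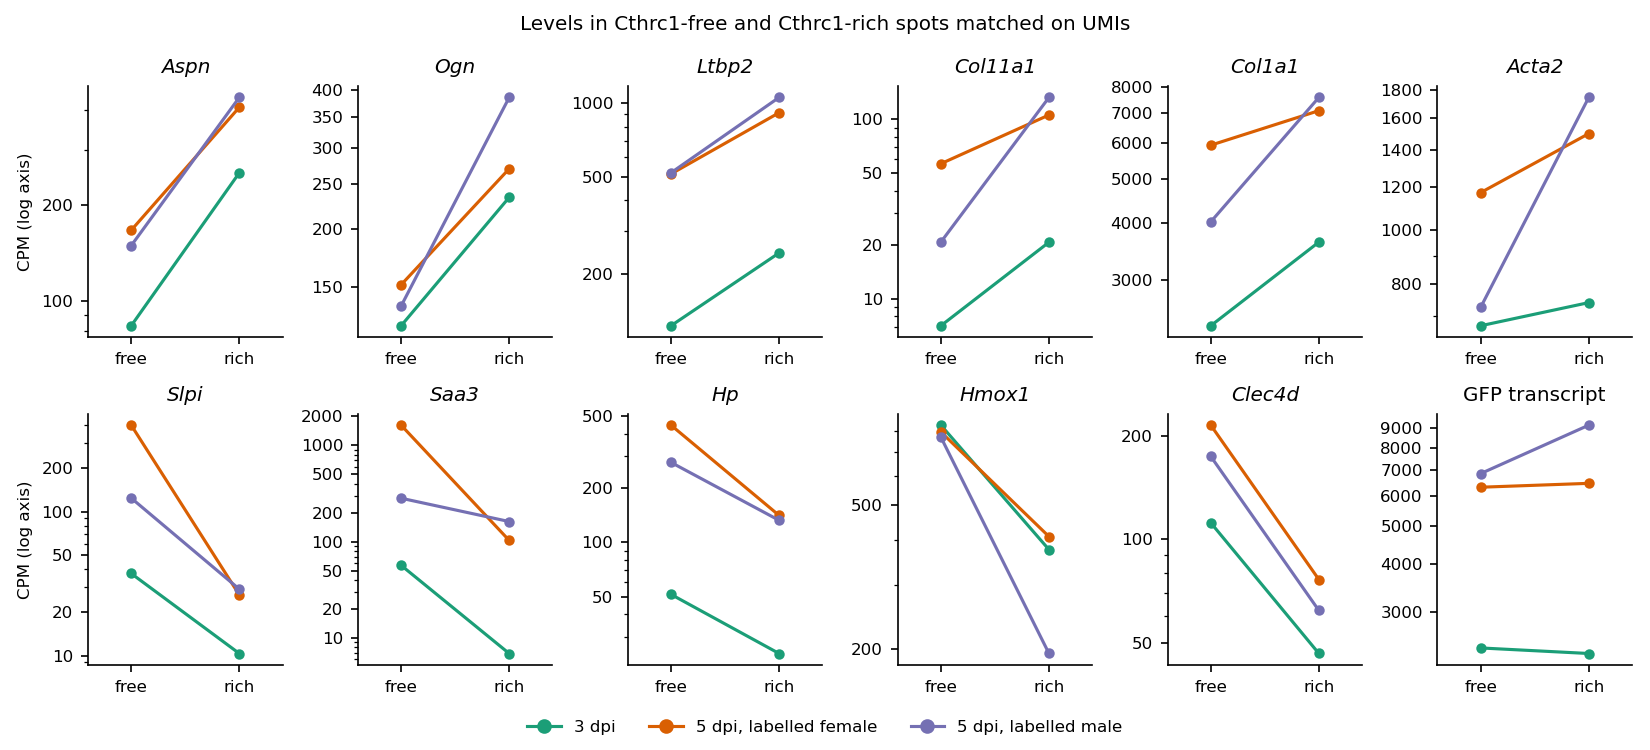
CPM (log axis) of 11 genes and the GFP transcript in the summed Cthrc1-free and Cthrc1-rich spots, matched on UMIs, with 1 line per section joining its 2 classes. Aspn, Ogn, Ltbp2, Col11a1, Col1a1 and Acta2 go up from free to rich in every section, Slpi, Saa3, Hp, Hmox1 and Clec4d go down in every section, and the GFP transcript falls slightly at 3 dpi (2414 to 2335 CPM).

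Aspn encodes asporin, a small leucine-rich proteoglycan (SLRP) that binds collagen and restrains TGF-beta. It reached 254, 408 and 439 CPM in Cthrc1-rich spots and 83.3, 167 and 149 CPM in Cthrc1-free spots. Its log2 fold change was 1.48 (SE 0.16, edgeR adjusted p = 3.63e-09), and every Cthrc1-rich value lay above the Cthrc1-free value of its section. The rise was seen in many spots: Aspn was detected in 73 of 95, 47 of 70 and 37 of 42 Cthrc1-rich spots, against 34, 37 and 20 of as many Cthrc1-free spots. By in situ hybridization, the study reports Postn+/Aspn+/Cthrc1- CFs at the outer border and Postn+/Aspn-/Cthrc1+ RCFs deeper in the fibrosis. Spots that pool several cells do not resolve such a separation. Ogn, another SLRP, stood at 235, 270.3 and 385 CPM against 124, 152 and 137 CPM (log2 fold change 1.06, SE 0.17, edgeR adjusted p = 2.29e-05). Fmod, an SLRP that guides collagen fibril assembly, stood at 24.1, 176 and 149 against 5.32, 71.5 and 95.4 CPM (log2 fold change 1.13, SE 0.25, edgeR adjusted p = 0.00413). Both were higher in 3 of 3 sections, Fmod from a low level at 3 dpi. Of the SLRP list, 7 of 9 genes could be tested, 4 rose (Aspn, Ogn, Bgn and Fmod) and 0 fell, with a median log2 fold change of 0.63. Biglycan, the product of Bgn, rose by 0.48, while decorin, the product of Dcn, had 0.19 (SE 0.13, edgeR adjusted p = 0.684).

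Col11a1, a minor fibrillar collagen that starts fibril assembly, rose by 1.51 (SE 0.33, edgeR adjusted p = 0.00275), the highest among the genes named by the rule, from 7.09, 56.6 and 20.7 CPM to 20.7, 106 and 132 CPM. These levels rested on few counts, 4, 19 and 5 UMIs in Cthrc1-free spots and 12, 36 and 32 UMIs in Cthrc1-rich spots. Of the 19 collagen genes, all tested, 9 rose and 0 fell, with a median of 0.42. Those that rose were Col1a1, Col1a2, Col3a1, Col5a1, Col5a2, Col8a1, Col11a1, Col12a1 and Col16a1. Col1a1, the main chain of scar collagen, stood at 3641, 7080.3 and 7572 CPM against 2384, 5946 and 4034 CPM, so it rose by 0.60 (SE 0.10, edgeR adjusted p = 3.26e-05). All 3 sections had the higher Col1a1 level in the Cthrc1-rich class, although the Cthrc1-free level at 5 dpi was above the Cthrc1-rich level at 3 dpi. Of 20 genes for collagen folding and crosslinking, 5 rose and 0 fell, with a median of 0.48. They were Lox and Loxl1, which crosslink collagen and elastin, Serpinh1, a collagen chaperone, Pcolce, an enhancer of procollagen cleavage, and Sparc, a collagen-binding protein. Lox stood at 381, 787 and 733 CPM against 292, 545 and 303 CPM (log2 fold change 0.69, SE 0.14, edgeR adjusted p = 0.000956).

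The matricellular and provisional matrix list had 20 of 22 genes tested, 11 higher and 1 lower, with a median of 0.51. Tenascin C, the product of Tnc, stood at 983, 497 and 306 CPM against 631, 309.9 and 174 CPM and rose by 0.70 (SE 0.13, edgeR adjusted p = 0.000523). Fibronectin, the product of Fn1, rose by 0.36 (SE 0.09, edgeR adjusted p = 0.017), from 1620.0, 3865 and 4191 CPM to 1969.6, 4742 and 5746 CPM. Thbs4, a thrombospondin, rose by 0.97 (SE 0.20, edgeR adjusted p = 0.00136). Its relative Comp, a cartilage and tendon matrix protein, stood at 6.90, 214 and 319 CPM against 12.4, 86.4 and 108 CPM. Comp passed the test (log2 fold change 1.28, SE 0.24, edgeR adjusted p = 0.000275) but was higher only in the 5 dpi sections, and its adjusted p was 0.39 without the section labelled female and 0.36 without that labelled male. Eln, Fbn1, Fbln2 and Fbln5, which form elastic fibres, also rose, as did Thbs2, Cilp and Ccn2. The gene that fell was Tgfbi, a TGF-beta-induced adhesion protein, at 300.1, 411 and 282 CPM against 399, 623 and 460.2 CPM (log2 fold change -0.54, SE 0.14, edgeR adjusted p = 0.0113).

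Ltbp2, a microfibril protein, stood at 243, 914 and 1056 CPM against 122, 513 and 518 CPM (log2 fold change 0.95, SE 0.13, edgeR adjusted p = 1.33e-06). On the TGF-beta list, 14 of 16 genes were tested, 4 rose and 0 fell, with a median of 0.38. Besides Ltbp2 these were Ltbp4, which binds latent TGF-beta, Tgfb3, a ligand, and Pmepa1, a target gene that limits the pathway, with log2 fold changes of 0.70, 0.91 and 0.61. Tgfb1, the best known ligand, had -0.57 (SE 0.20, edgeR adjusted p = 0.125) and was lower in 3 of 3 sections without passing. Ltbp3, which the study names beside Aspn, had 0.10 (SE 0.17, edgeR adjusted p = 0.938). Fndc1, a fibronectin-domain protein named with it, had 0.53 (SE 0.20, edgeR adjusted p = 0.199).

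Of the Wnt list, 6 of 14 genes were tested and 1 rose, with a median of 0.43. This was Frzb, a secreted Wnt antagonist, at 56.9, 97.0 and 169.7 CPM against 39.0, 47.7 and 66.3 CPM (log2 fold change 0.97, SE 0.25, edgeR adjusted p = 0.0124). Of 10 contractile genes, all tested, 5 rose and 0 fell, with a median of 0.49. Acta2, the smooth muscle actin of myofibroblasts, stood at 739.9, 1498 and 1743 CPM against 672, 1171 and 726 CPM (log2 fold change 0.57, SE 0.13, edgeR adjusted p = 0.00425). The widest gap was in the 5 dpi section labelled male. Of 8 resting fibroblast genes, 6 were tested and 1 rose, Pi16, a marker of adventitial fibroblasts, at 67.3, 52.9 and 182 CPM against 33.7, 47.7 and 49.7 CPM (log2 fold change 1.08, SE 0.27, edgeR adjusted p = 0.0123). It had 0.66 (adjusted p = 0.671) without the section labelled male and 1.4 (adjusted p = 0.165) without the section labelled female. The median of that list was 0.04, near that of all genes. No gene passed among 7 of 10 tested fibroblast transcription factors (median 0.25), 12 secretory pathway genes (0.13) and 6 of 10 tested hypoxia genes (-0.11). The study also names 4 RCF markers besides Cthrc1 and Postn, and 3 of these rose, with a median of 0.52 over the 4. Ddah1, which degrades an inhibitor of nitric oxide synthesis, stood at 65.5, 141 and 207 CPM against 42.5, 107 and 53.9 CPM (log2 fold change 0.89, SE 0.23, edgeR adjusted p = 0.0152). Lox and Fn1 are given above, and Ptn, a growth factor, had 0.23 (SE 0.22, edgeR adjusted p = 0.82).

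Cemip, which breaks down hyaluronan, was another gene named by the rule and stood at 20.7, 153 and 174 CPM against 8.86, 74.5 and 58.0 CPM (log2 fold change 1.26, SE 0.26, edgeR adjusted p = 0.00136). Srpx2, a secreted sushi-repeat protein, Fibin and Rflnb, a filamin-binding protein, rose by 0.98, 1.08 and 0.96. Each was higher in 3 of 3 sections.

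The GFP transcript, the reporter of collagen-expressing cells, did not pass the test. It stood at 2335, 6460.4 and 9149 CPM in Cthrc1-rich spots and 2414, 6312 and 6849 CPM in Cthrc1-free spots (log2 fold change 0.15, SE 0.09, edgeR adjusted p = 0.641). The Cthrc1-rich level was higher in both 5 dpi sections and lower at 3 dpi. When pairs were also matched on GFP UMIs, 31 genes passed, of which 28 were among the 137.

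Slpi and Saa3 had the lowest fold changes in Cthrc1-rich spots. Slpi, which inhibits leukocyte proteases, stood at 10.3, 26.4 and 29.0 CPM against 37.2, 399 and 124 CPM (log2 fold change -3.02, SE 0.29, edgeR adjusted p = 9.97e-11). Saa3, an acute phase protein, stood at 6.90, 103 and 161 CPM against 56.7, 1615 and 282 CPM (log2 fold change -2.77, SE 0.27, edgeR adjusted p = 1.65e-10). Both were lower in 3 of 3 sections and the most in the 5 dpi section labelled female. Without that section Slpi had -1.96 (adjusted p = 0.11) and Saa3 -1.29 (adjusted p = 0.25), and by DESeq2 Saa3 had an adjusted p of 0.099. Single spots weighed on Saa3, since the top Cthrc1-free spot held 16 of 32, 79 of 542 and 18 of 68 Saa3 UMIs of that class.

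Hmox1, an enzyme that breaks down haem, stood at 376, 408 and 195 CPM against 828, 793 and 767 CPM (log2 fold change -1.26, SE 0.14, edgeR adjusted p = 3.63e-09). A single Cthrc1-free spot held 118 of 467 Hmox1 UMIs of that class at 3 dpi, and 77 of 185, 41.6%, in the section labelled male. Hmox1 was detected in 62 of 95, 40 of 70 and 21 of 42 Cthrc1-rich spots, against 63, 53 and 20 of as many Cthrc1-free spots. Clec4d, a lectin receptor of myeloid cells, stood at 46.6, 76.4 and 62.1 CPM against 112, 215 and 174 CPM (log2 fold change -1.39, SE 0.21, edgeR adjusted p = 8.49e-06). Its levels in the classes did not overlap across the 3 sections. Further myeloid genes that fell were C5ar1, the complement C5a receptor (-1.28), Itgam, an integrin of neutrophils and monocytes (-1.24), and Mmp12, the macrophage elastase (-1.29). Hp, which binds free haemoglobin, fell too, at 24.1, 141 and 132 CPM against 51.4, 447 and 278 CPM (log2 fold change -1.36, SE 0.20, edgeR adjusted p = 3.46e-06). A single Cthrc1-free spot of the section labelled female held 89 of its 150 Hp UMIs, and a single Cthrc1-rich spot 21 of 48, which left 27 against 61 without them. Tbxas1, the thromboxane synthase, Pgf, an angiogenic growth factor, and Gda, a guanine deaminase, had -1.71, -1.46 and -1.31, all lower in 3 of 3 sections.

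On the marker lists of immune cells, each gene that passed was lower in Cthrc1-rich spots. Of 8 lipid-associated macrophage markers, all tested, 5 fell and 0 rose, with a median of -0.59, and their summed level was 4608, 5056 and 3759 CPM against 6723, 6437 and 8370.2 CPM. Spp1, which encodes osteopontin, stood at 2158, 2012 and 1093 CPM against 3451, 2909 and 2674 CPM (log2 fold change -0.80, SE 0.11, edgeR adjusted p = 1.09e-06). Lgals3, Fabp5, Gpnmb and Mmp12 were the others. Of 8 general macrophage markers, all tested, Lyz2 (-0.50) and Cd68 (-0.75) fell, with a list median of -0.38 and a summed level of 6507, 9495 and 9641 CPM against 7593, 11343 and 14937 CPM. Of resident macrophage markers, 4 of 7 were tested and F13a1 fell (median -0.33). Of neutrophil markers, the 2 of 7 that could be tested both fell, S100a8 by 0.90 and S100a9 by 1.21. The neutrophil sum was 188, 279 and 153 CPM against 432, 438 and 477 CPM, and Ly6g, their defining surface marker, was at 0. The 4 antigen presentation genes had a median of -0.18 and none passed. No lymphocyte marker (0 of 7) was abundant enough to be tested.

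**Figure D3:**
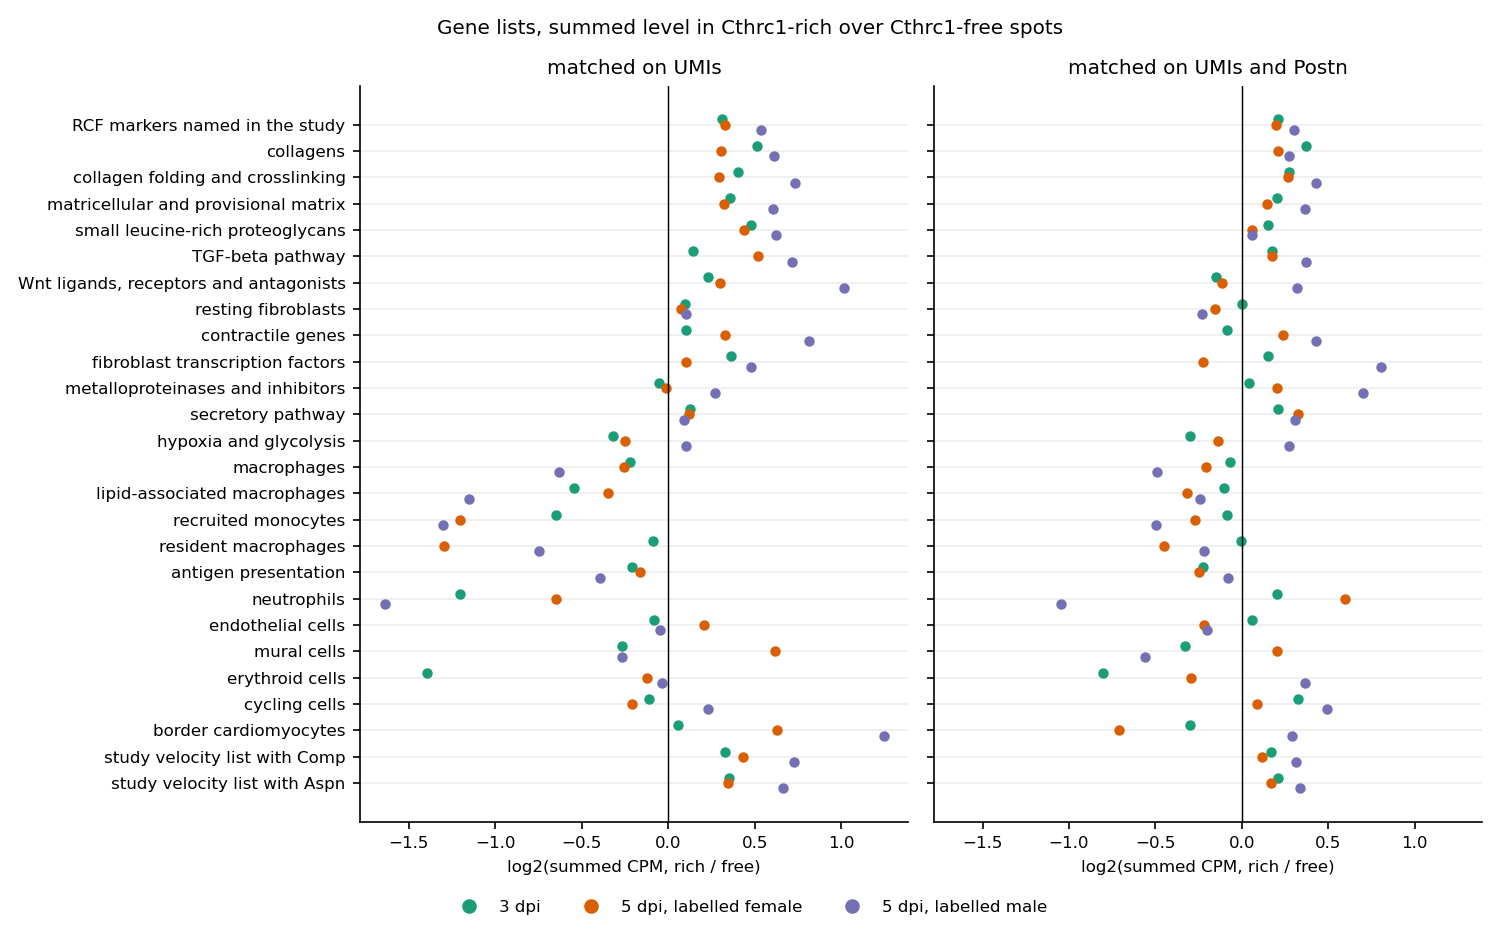
Summed CPM of each gene list in Cthrc1-rich over Cthrc1-free spots (log2 of the ratio, 1 point per section), matched on UMIs (left) and on UMIs and Postn (right). On the left, the collagen, collagen folding, matricellular and SLRP lists lie above 0 and most myeloid lists below 0. Neutrophil sums there are 188, 279 and 153 CPM against 432, 438 and 477 CPM.

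Lists of other cell types were read the same way. Border cardiomyocyte genes, all 8 tested, had 4 higher and 0 lower, with a median of 0.42. They were Nppa, the atrial natriuretic peptide gene (0.78), Clu, a secreted chaperone (0.62), Ankrd1, a stretch-responsive nuclear protein (0.51), and Des, an intermediate filament of muscle (0.50). The 12 cardiomyocyte genes of the rule made up 2.25%, 0.788% and 0.848% of UMIs in Cthrc1-rich spots and 2.12%, 0.660% and 0.610% in Cthrc1-free spots. Mitochondrial UMIs moved the other way, at 10.4%, 5.32% and 3.13% against 11.4%, 5.65% and 3.14%. Of erythroid genes, 4 of 5 were tested and the beta-globins Hbb-bs and Hbb-bt fell (list median -0.48), though globin copies are nearly identical and their reads may be split between them. The median was 0.03 for 7 endothelial genes, 0.07 for 4 of 7 tested mural genes and 0.00 for 5 of 6 tested cycling genes, and none of these passed. Matrix proteases and inhibitors had 8 of 11 tested with 1 lower, Mmp12, and a median of 0.09. Mesothelial (5) and Schwann cell (4) markers were too low to test, and the mesothelial sums were 0, 109 and 45.5 CPM against 10.6, 277 and 24.9 CPM.

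In Cthrc1-rich spots, many matrix genes and the cardiomyocyte share were thus higher, and the border distance and several macrophage markers lower. With pairs matched also on the cardiomyocyte share, 61 genes passed, 53 of them among the 137. With pairs matched also on steps to the border, which left 74, 38 and 26 pairs, 8 genes passed, all among the 137, and all but 1 of the called genes that could be fitted kept their direction. In those pairs Aspn had 1.02 (adjusted p = 0.035) and Saa3 -2.91 (adjusted p = 0.00017), while Hmox1 had -0.51 (adjusted p = 0.7). With pairs at most 4 steps apart, 23 genes passed and Aspn had 1.05 (adjusted p = 0.038). What the macrophage content of the spots contributed to the matrix genes was not tested.

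Across all unmatched IZ spots with Postn, levels were also read at 0, 1 to 2, 3 to 5 and 6 or more Cthrc1 UMIs per spot. Aspn stood at 92.1, 144, 173 and 261 CPM at 3 dpi. At 5 dpi the heart labelled female had 168, 207, 308 and 455 CPM, and that labelled male 149, 206, 263 and 353 CPM. Aspn was higher at each step in every section. Spp1 began at 2695 CPM and ended at 1392 CPM in the heart labelled male but moved back and forth at 3 dpi (3007, 2520, 2899 and 2314 CPM). These spots were not matched on UMIs, so the levels are a description.

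**Figure D4:**
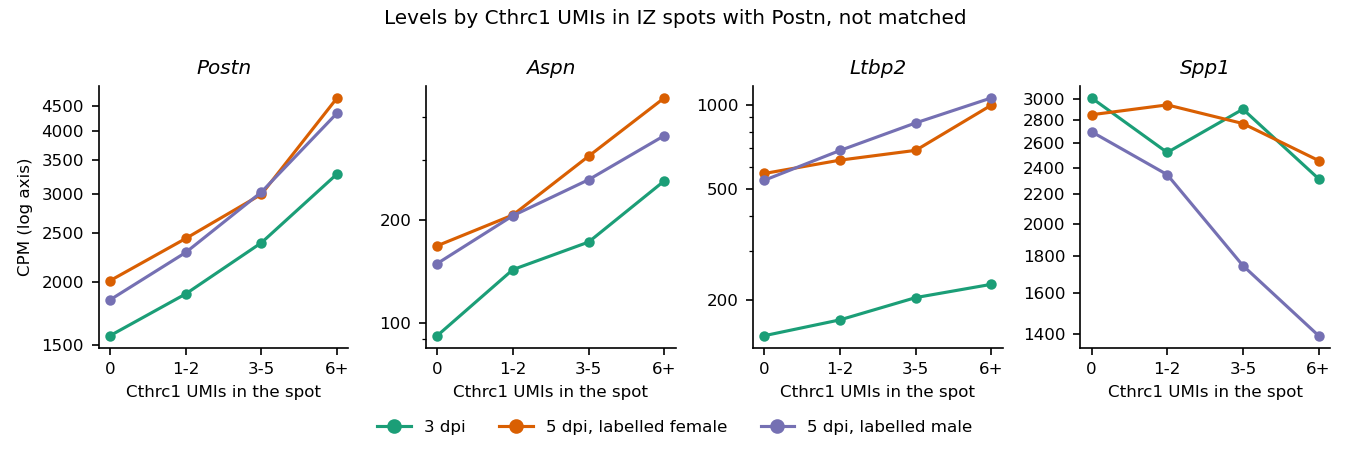
CPM (log axis) of Postn, Aspn, Ltbp2 and Spp1 in IZ spots with Postn, grouped by the Cthrc1 UMIs they held (0, 1-2, 3-5, 6+), with 1 line per section and no matching. Aspn and Ltbp2 step up in each section, Ltbp2 from 150 to 228 CPM at 3 dpi, while Spp1 ends at 2314, 2455 and 1392 CPM.

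The study ranked genes by RNA velocity in single cells of other libraries, and its lists were read here on the spots. They are named by a member, since the sheet names and column headings of the study's lists disagree. The lists read here, of 57 and 43 genes, hold fewer genes than the study's text gives for its velocity programs. The list with Aspn had 43 of 57 genes tested, 15 higher and 0 lower, with a median of 0.39. The list with Comp had 36 of 43 tested, 10 higher and 0 lower, with a median of 0.47.

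The promoters of Aspn, the called gene the study singles out, and of Saa3 and Slpi, the strongest contrasts in the other direction, are shown as the 250 bases before the start site, 5′ to 3′ on the gene's strand (RefSeq, GRCm38.p6). Capitals mark matches to C/EBP (TTGCNNAA, on either strand), the binding letters of a factor family of acute phase genes. Saa3 has 1 match 99 bases before the start and Slpi 1 match 241 bases before it.
Aspn, chr13:49544193-49544442, + strand: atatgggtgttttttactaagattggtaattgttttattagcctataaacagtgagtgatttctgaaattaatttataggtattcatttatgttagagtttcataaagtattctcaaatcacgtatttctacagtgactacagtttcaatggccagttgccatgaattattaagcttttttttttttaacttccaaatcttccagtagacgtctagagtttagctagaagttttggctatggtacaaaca
Saa3, chr7:46715677-46715926, - strand: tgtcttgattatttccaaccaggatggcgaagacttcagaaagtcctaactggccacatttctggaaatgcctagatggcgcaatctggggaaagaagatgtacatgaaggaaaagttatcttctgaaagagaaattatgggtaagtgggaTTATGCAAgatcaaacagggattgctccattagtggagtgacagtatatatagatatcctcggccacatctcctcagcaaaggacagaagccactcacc
Slpi, chr2:164356508-164356757, - strand: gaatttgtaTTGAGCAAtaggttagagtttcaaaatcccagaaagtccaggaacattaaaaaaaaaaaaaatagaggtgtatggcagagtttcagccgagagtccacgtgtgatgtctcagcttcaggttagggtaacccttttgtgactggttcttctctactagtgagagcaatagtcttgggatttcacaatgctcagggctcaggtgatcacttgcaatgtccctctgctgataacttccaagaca
Among the promoters of genes named by the rule, C/EBP matched 1 of 12 higher genes (Fmod) and 4 of the 9 lower genes with an entry (Gda, Mmp12, Saa3 and Slpi), against 9.55% of all 27025 windows. TEAD (GGAATG) matched 3 of the higher genes (Fibin, Ogn and Thbs4) and 0 of the lower, against 12.6% of windows. AP-1 (TGANTCA) matched 1 and 1, against 6.87%, SMAD (CAGACA) 2 and 1, against 17.1%, and NF-kB 0 and 0, against 0.337%. These counts describe letters in a short window, and the binding of no factor was measured.

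To ask which genes go with Cthrc1 when Postn is equal, pairs were also matched on Postn UMIs, which left 81, 64 and 39 pairs. Postn was then 1813, 2278 and 1870 CPM against 1778, 2238 and 1914 CPM. Acta2, Tpm2, Col1a1 and Col1a2 were higher in Cthrc1-rich spots here too, while several genes of heart muscle and the acute phase gene Saa3 were lower. Of 4622 genes tested, 23 passed (0.498%), 9 higher (0.195%) and 14 lower (0.303%), all in the same direction in 3 of 3 sections. Of these, 12 had passed before the Postn matching. The count leaned on the 3 dpi section: by edgeR, 0 genes passed without it, where 287 had an unadjusted p under 0.05, against 408 with it. By DESeq2, 0 genes passed with all 3 sections, and 43 had an unadjusted p under 0.05.

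Of the genes that rose in Postn-matched pairs, Tnc had the highest fold change, at 758, 570.4 and 554 CPM against 640.4, 307 and 169.6 CPM (log2 fold change 0.71, SE 0.15, edgeR adjusted p = 0.00702). Sprr1a, a stress-induced protein of heart muscle, stood at 901, 619.9 and 1138 CPM against 842, 338 and 418 CPM (log2 fold change 0.67, SE 0.14, edgeR adjusted p = 0.00828). Acta2 stood at 697, 1784 and 1541 CPM against 648, 1182 and 718 CPM (log2 fold change 0.55, SE 0.11, edgeR adjusted p = 0.00702). For each of the 3 genes the gap was narrow in the single 3 dpi section and wider in both 5 dpi sections. This difference was not tested in these pairs. Tpm2, a tropomyosin, rose by 0.56, Serpinh1 by 0.47 and Timp1, an inhibitor of matrix proteases, by 0.44. Col1a2 (0.42), Col1a1 (0.39) and Sparc (0.30) completed the 9.

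Of the genes that passed in these pairs, Saa3 had the lowest fold change, at 7.70, 458 and 139 CPM against 52.4, 1134 and 213 CPM (log2 fold change -1.27, SE 0.18, edgeR adjusted p = 5.26e-05), and Slpi had -1.07 (SE 0.24, edgeR adjusted p = 0.0207). Acta1, the skeletal actin of stressed and immature cardiomyocytes, stood at 422, 148 and 121 CPM against 620.2, 338 and 483 CPM (log2 fold change -1.04, SE 0.16, edgeR adjusted p = 0.000188). Without the 3 dpi section it had -1.58 (edgeR adjusted p = 0.399) and without the section labelled male -0.76 (edgeR adjusted p = 0.0169). With these pairs matched also on steps to the border, which left 60, 21 and 14 pairs, Acta1 had 0.014 (edgeR adjusted p = 0.998) and none of the 23 genes passed by edgeR, where 55 of all tested genes had an unadjusted p under 0.05. Srl, a calcium-binding protein of muscle, and Cox8b, a subunit of the respiratory chain, had -1.11 and -0.82. Also lower were Fabp3, Cox6a2, Tnnc1, Xirp2, S100a1, Fabp4, C3 and Psap, most of them genes of muscle. The cardiomyocyte share moved with them, at 1.73%, 0.465% and 0.525% against 2.20%, 0.809% and 0.635%, as did the mitochondrial share, at 8.49%, 4.72% and 2.09% against 11.6%, 6.13% and 3.23%. The share of spots within 1 to 2 steps of the border was also lower in Cthrc1-rich spots of every section, at 38.3%, 10.9% and 10.3% against 48.1%, 20.3% and 20.5% (mean difference -9.84 percentage points, SD 0.44, n = 3 sections, exact sign-flip permutation test, two-sided, p = 0.25). Mean distance to the border had no common sign, at 4.16, 29.7 and 22.3 steps against 4.46, 25.0 and 20.7 steps.

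Aspn did not pass in the Postn-matched pairs, at 141, 204 and 177 CPM against 98.7, 171 and 157 CPM (log2 fold change 0.30, SE 0.18, edgeR adjusted p = 0.678), although its level was higher in 3 of 3 sections. Ltbp2 (0.36, SE 0.13, edgeR adjusted p = 0.319) and Comp (-0.29, SE 0.33, edgeR adjusted p = 0.887) did not pass either. The GFP transcript had 0.27 (SE 0.07, edgeR adjusted p = 0.0944). The difference between the matchings was not tested, since they share spots. By list, 2 of 19 collagens, 2 of 20 folding and crosslinking genes, 2 of 10 contractile genes and 1 of 20 matricellular genes (Tnc) were higher, 0 of 7 SLRPs passed, and 2 of 8 border cardiomyocyte genes (Acta1 and Xirp2) were lower. The list medians were 0.16, 0.24 and 0.30 for collagens, folding genes and contractile genes, 0.09 for SLRPs, -0.34 for border cardiomyocytes and -0.25 for lipid-associated macrophages, of which none passed. The neutrophil median turned to 0.18, with S100a8 at 0.25 and S100a9 at 0.12, neither of which passed, and the neutrophil sums were 337, 475 and 234 CPM against 292, 314 and 483 CPM. Of the study's own lists, 2 of 42 tested genes of the list with Aspn were higher (median 0.05), 1 of 34 of the list with Comp (median 0.16) and 0 of the 4 RCF markers (median 0.19), with none lower.

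**Figure D5:**
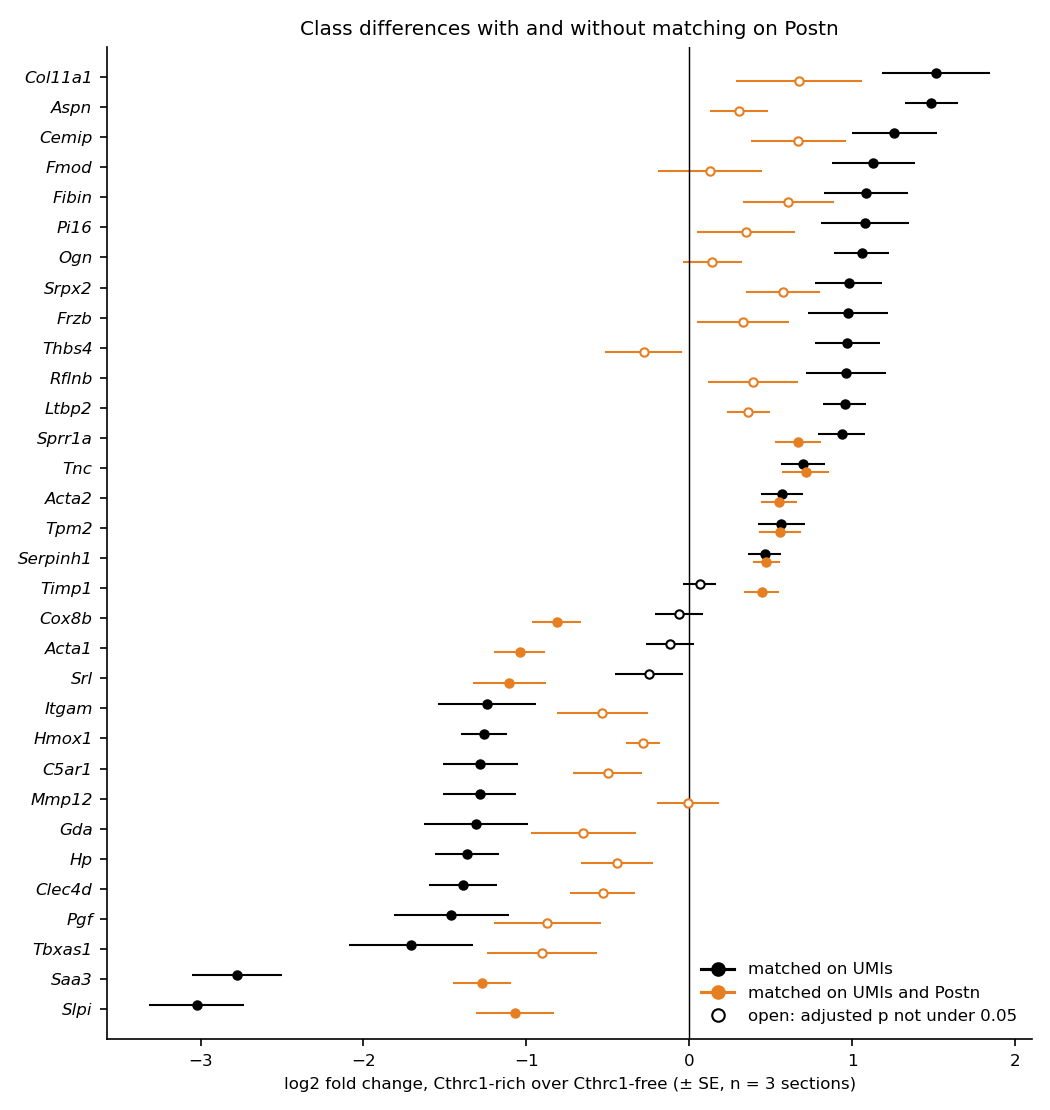
Log2 fold change (Cthrc1-rich over Cthrc1-free, ± SE, n = 3 sections) of genes named by the rule, with pairs matched on UMIs (black) or on UMIs and Postn (orange), filled where the adjusted p is under 0.05. Aspn stands at 1.48 in black and 0.30, unfilled, in orange, while Tnc and Acta2 are filled in both.

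The 3 dpi heart was set against the 5 dpi hearts by testing whether the class difference itself differed between them. Of 4948 genes, 8 passed (0.162%), 7 with a more positive difference at 5 dpi (0.141%) and 1 with a more negative one (0.0202%). Nppa stood at 12252 CPM against 12012 CPM at 3 dpi and at 8922 and 9625 CPM against 4783 and 3603 CPM at 5 dpi, a difference in log2 fold change of 1.12 (SE 0.20, edgeR adjusted p = 2.77e-05). At 5 dpi the top Cthrc1-rich spot held 677 of 3037 and 557 of 2325 Nppa UMIs. The top Cthrc1-free spot held 226 of 1605 and 223 of 869. Ankrd1 and Sprr1a, both induced in stressed heart muscle, had differences of 1.01 and 1.07. Ly6a, which encodes the surface protein Sca-1 of fibroblasts and endothelial cells, stood at 586, 297 and 339 CPM against 434, 468 and 705 CPM, higher in Cthrc1-rich spots at 3 dpi and lower at 5 dpi (-1.29, SE 0.29, edgeR adjusted p = 0.00622). The alpha- and beta-globins made up the rest, with Hbb-bs at 973, 13041 and 4425 CPM against 2389, 14904 and 4589 CPM. Their 5 dpi values rested much on a single Cthrc1-rich spot per section, which held 2025 of 4439 and 364 of 1069 Hbb-bs UMIs, and 2414 and 705 were left without it, against 4252 and 907 in the Cthrc1-free class without its own top spot. By DESeq2, or by edgeR without the filter on low counts, 0 genes passed, with 7 and 290 at an unadjusted p under 0.05. With 1 heart at 3 dpi, day and heart cannot be told apart.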

How the data were processed

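Raw UMI counts per gene and spot were deposited by the authors for 4 Visium sections (1 control, 1 at 3 dpi, 2 at 5 dpi), with no normalization, made with Space Ranger 1.3.1 against a mouse reference extended by GFP. Tissue spots were picked by hand by the authors. The counts covered 21885 genes, 13 of them mitochondrial.

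Cthrc1-rich and Cthrc1-free spots were paired by optimal 1 to 1 assignment within a caliper of 0.2 in log2 non-mitochondrial UMIs (0.3, and 0.5 in log2 of Postn UMIs plus 1, for the Postn-matched pairs). UMIs were summed into 6 sums, 2 per infarcted section, and compared in R 4.3.3 with the quasi-likelihood test of edgeR 4.0.16 (with limma 3.58.1), after TMM scaling and filterByExpr, with a block for each section, since both classes of a section share 1 heart. Benjamini-Hochberg adjustment ran over all genes tested, at a threshold of 0.05. The change of the class difference with day was tested as an interaction. The 14 genes of the rule and the mitochondrial genes were not tested. Section values were compared by an exact sign-flip permutation test. DESeq2 1.42.0 was an alternative, as were other filters, limits, matchings and left-out sections. The test was tested on simulated data. Spot classes were built with pandas 2.3.3, SciPy 1.17.1 and NumPy 2.4.6 under Python 3.11.15, and figures drawn with matplotlib 3.10.9.

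The rule named the 12 highest and 12 lowest fold changes past the threshold, for genes with 1 direction in 3 sections that averaged 50 CPM or more in a class (6 and 6 for Postn-matched pairs, the 5 with the smallest p each way for the day test), besides a fixed panel and examples from 29 gene lists. Some genes that the rule picked are not reported here. The members and lists were chosen with earlier results of these data known. Each heart gave 1 section, so p-values measure the spread between hearts of both days. Counting error alone is smaller for genes and sections with more UMIs, and matched sums held 241212 to 579811 non-mitochondrial UMIs.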

Additional observations from a re-analysis of the deposited data

Results flagged for a closer look

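A total of 8 genes passed the edgeR test of whether the class difference in the 3 dpi heart differed from that in the 5 dpi hearts, and 0 passed by DESeq2 or without the filter on low counts. The difference in log2 fold change, 5 dpi minus 3 dpi, was 1.44 for Hba-a1, 1.51 for Hba-a2, 1.16 for Hbb-bs and 1.38 for Hbb-bt, 1.12 for Nppa, 1.01 for Ankrd1, 1.07 for Sprr1a and -1.29 for Ly6a. The adjusted p ran from 1.79e-06 for Hba-a1 to 0.0286 for Sprr1a. Hba-a1 and the other globins were lower in Cthrc1-rich spots at 3 dpi, with Hba-a1 at 376 against 1035 CPM, and stood at 6819 against 7314 CPM and 1677 against 1559 CPM at 5 dpi. There a single Cthrc1-rich spot held 1282 of 2321 and 185 of 405 Hba-a1 UMIs, and without it 1039 and 220 were left, against 2454 and 376 in all Cthrc1-free spots (2016 and 313 without the top spot of that class). With 1 heart at 3 dpi, the day and the heart cannot be told apart, and the 1 residual degree of freedom of this test comes from the 5 dpi hearts.

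Spots left off the tissue mark also held Cthrc1. In the 5 dpi section labelled male, 560 of 623 unmarked spots had at least 500 UMIs, and 162 of them, 28.9%, held at least 1 Postn and 3 Cthrc1 UMIs. Of the marked spots of that section with at least 500 UMIs, 497 of 1423 met the same rule. The marked control spots, which held 0 Cthrc1 UMIs, had 0 of 1166. For the control section this allows a share of up to 0.257% (3 counts, counting error only). The unmarked spots entered no comparison.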

How the results depend on the processing

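Against 137 genes in the pairs matched on UMIs, 16 passed by DESeq2, which gave no adjusted p for 55 of the 137. Without the filter on low counts 62 passed, with no replicate block 0 (203 at an unadjusted p under 0.05), with 1 to 2 Cthrc1 UMIs as the rich class 7, with at least 3 Postn UMIs 80, at a stricter and a looser limit on the cardiomyocyte share 232 and 282, with no UMI matching 81, and with pairs matched also on cardiomyocyte share 61, on steps to the border 8, on GFP UMIs 31 or at most 4 steps apart 23. Leaving out 1 section gave 7 to 144. Other settings gave 128 to 179. Of the called genes that could be fitted, 137 of 137 kept their sign by DESeq2 and with no replicate block, and 128 of 137 at the looser limit. DESeq2 and the fit with no block used the same sums, so signs could hardly turn there. Of the Postn-matched 23, 0 passed by DESeq2 (43 unadjusted), with no replicate block (94 unadjusted) and with pairs matched also on steps (55 unadjusted), and leaving out 1 section gave 0 to 17. Of the 8 in the day test, 0 passed by DESeq2 (7 unadjusted) and without the filter (290 unadjusted). No section could be left out of the day test, since 1 heart stood for 3 dpi. The block is the heart, so the fit without it sets classes of different hearts against each other. The cause of the other changes was not tested.

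Some log2 fold changes turned in sign, and none of these passed the test in the setting where it turned. With 1 to 2 Cthrc1 UMIs, Fmod had -0.12, Fn1 -0.00048 and Ltbp3 -0.23. Ltbp3 had -0.013 with at least 2 Cthrc1 UMIs. Leaving out 1 section gave Ltbp3 -0.036 to 0.25, the GFP transcript (EGFP) -0.00034 to 0.22 and Ptn -0.019 to 0.46. Pi16 had -0.041 at the looser limit and Fndc1 -0.0046 with steps matched. In the Postn-matched pairs, with steps matched too, Acta1 had 0.014, Ddah1 0.26, Ptn -0.029, Ltbp3 0.26 and Comp 0.96. Leaving out 1 section gave these pairs -0.62 to 0.24 for Ddah1 (0.0099 without the 3 dpi section), -1.28 to 0.23 for Comp and -0.089 to 0.10 for Ltbp3, which had 0.011 without TMM and 0.022 with no replicate block. Of the 24 genes that the naming rule picked among the 137, 517 refits gave 337 on the same side of the threshold, 178 past it no longer and 2 with the sign turned.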

Other observations

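Genes outside the lists are given here, all chosen after their values were seen. Mfap5 and Mfap4, which belong to elastic microfibrils, stood at 729.5, 846 and 878 CPM and 210.4, 573 and 1254 CPM in Cthrc1-rich spots, against 367, 551 and 377 CPM and 133, 319 and 717 CPM in Cthrc1-free spots. Mfap5 rose by 0.94 (SE 0.13, edgeR adjusted p = 1.17e-06) and Mfap4 by 0.79 (SE 0.13, edgeR adjusted p = 7.10e-05), both in 3 of 3 sections. Pcsk6, a proprotein convertase, had the highest fold change of all called genes, 1.64 (edgeR adjusted p = 0.0044), at a level too low for the naming rule.

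Some genes that store iron or other metals were among the called genes lower in Cthrc1-rich spots. The ferritin chains Ftl1 and Fth1 fell by 0.50 and 0.52 on the log2 scale (edgeR adjusted p = 0.000156 and 0.000163), and Ftl1 stood at 7475, 9110.4 and 8213 CPM against 9637, 11152 and 15265 CPM. The metallothioneins Mt1 and Mt2 fell by 0.56 and 0.81 (edgeR adjusted p = 0.00144 and 0.00589). Plin2, which coats lipid droplets, fell by 0.81, the chemokines Ccl6 and Pf4 by 1.22 and 0.76, and complement C3 by 1.09.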
